A study of Bos taurus with 8 samples.

Results

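The genes described here are the translation initiation factors, the elongation factors and the aminoacyl-tRNA synthetases of the cow, followed in granulosa cells through the hours after the surge of luteinizing hormone (LH). Members were taken by symbol alone: platform symbols that begin with EIF or EEF and a digit, and symbols made of 1 or 2 amino acid letters followed by ARS, with or without a final 1 or 2. The rule gave 126 probes of the 21790 that carry a symbol, and these stand for 83 of the 15216 named genes. The rule uses no measured value, and the family was taken up with earlier results of these data known. After probes at background were left out, 121 probes and 82 genes could be tested, and EIF2C1 was the gene lost. EIF2C1, EIF2C2 and EIF2C3 are the Argonautes AGO1, AGO2 and AGO3 under an older name, so they answer to the rule by spelling and are not initiation factors.

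Granulosa cells line the ovarian follicle and make oestradiol, and after the LH surge they stop dividing, luteinise and turn to progesterone. Cap-dependent translation starts when eIF4E, eIF4A and eIF4G assemble as eIF4F on the capped message, while eIF2 carries the initiator tRNA to the small ribosomal subunit and eIF3, eIF1, eIF1A, eIF5 and eIF5B guide start codon choice and subunit joining. The elongation factors then bring charged tRNAs to the ribosome and move it along, and the synthetases charge each tRNA with its amino acid. Cytosol and mitochondria use separate synthetases for most amino acids, and the mitochondrial enzymes serve only the messages of the mitochondrial genome.

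The cells came from Holstein Friesian cows stimulated with FSH, whose LH surge was induced with GnRH. Mural granulosa cells had been scraped from the follicle wall and held some theca cells, per the labels' protocols. The 6 h post-LH group came from follicles over 8 mm, the 22 h post-LH group from preovulatory follicles, and the pre-LH group, taken 2 h before the surge, from follicles of 6 to 8 mm, so follicle stage and size moved together with time. Each of the 8 two-colour arrays set amplified RNA of 1 post-LH sample against pre-LH RNA, with 4 arrays at 6 h and 4 at 22 h, and at each time 2 arrays had the post-LH RNA in Cy5 and 2 had it in Cy3. The labels number 4 biological replicates per group, and whether the same pre-LH samples serve both times is not stated there. The labels do not say how many cows make up a replicate, and the p-values below measure the spread between these arrays.

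Between 75.1% and 85.4% of probes stood above the 95th percentile of the negative controls in each channel, and array values have no read depth, so the number of arrays sets the precision. Over all tested probes the log2 ratios of 2 arrays of 6 h correlated with r from 0.56 to 0.87 and those of 2 arrays of 22 h with r from 0.54 to 0.75, as descriptions. Over the members alone these ranges were 0.42 to 0.84 and 0.16 to 0.71. Of all tested genes 24.5% were called (adjusted p under 0.05) at 6 h and 20.5% at 22 h. Of the theca markers 1 of 6 rose and 4 of 6 fell at 6 h, and 6 of 6 fell at 22 h. Their mean log2 intensity was 10.6 to 11.0 in the 6 h channels against 11.3 to 11.7 in the pre-LH channels of those arrays, and 9.77 to 10.4 in the 22 h channels against 11.3 to 11.7 in theirs. Of 9 granulosa markers, 5 fell at 6 h, and at 22 h 1 rose and 4 fell, among them CYP19A1 (aromatase) at both times, with changes of -1.74 and -2.47. NR5A2 went the other way at 22 h, with log2 ratios of 1.04 to 1.62, and FSHR and GATM had 22 h arrays on both sides of 0. Of 7 leukocyte markers 3 rose at 6 h and 0 were called at 22 h, where limma gave 1 an unadjusted p under 0.05 upwards and 0 downwards. The part of cell makeup in the results below was not tested, and in such scrapings fewer cells of a type and less RNA per cell cannot be told apart.

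All changes below are log2 ratios of post-LH over pre-LH from 1 limma fit over the 8 arrays, with SE, and "rose" or "fell" means an adjusted p under 0.05 (Benjamini-Hochberg over all 38453 tested probes). At 6 h, 12 of the 82 tested members rose and 10 fell. That is 26.8% of the members, close to the 24.5% of all 14138 tested genes that were called at 6 h (11.6% up, 12.8% down). At 22 h 9 members rose and 6 fell, or 18.3%, against 20.5% of all genes (9.82% up, 10.7% down). The direct contrast of 22 h minus 6 h called 15 members, 5 higher and 10 lower at 22 h, against 15.4% of all genes (7.79% higher, 7.58% lower). As a family the members were therefore called about as often as genes in general, and their median change was 0.031 at 6 h and 0.0032 at 22 h, against -0.0039 and 0.0054 for all genes. In all, 32 members were called in at least 1 of the 3 comparisons and 50 in none. The counts fell without some single arrays, and so did the shares of all genes. Without 6 h replicate 1, or without 6 h replicate 2, 4 members rose and 5 fell at 6 h. Of all genes 6.78% and 6.56% rose in those fits, in that order, and 7.36% fell in each. At 22 h 3 members rose and 2 fell without 22 h replicate 3, where 4.97% of all genes rose and 5.59% fell. Without 22 h replicate 4, 3 members rose at 22 h, and the share of all genes up dropped less than without replicate 3. Centring each array on its median in place of loess left 0 calls among the members in any comparison, and 51 of the 52 called changes kept their sign. Few genes of any kind were called with that centring: 0.545% up and 0.0637% down at 6 h, and 0.714% and 0.262% at 22 h.

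**Figure D1:**
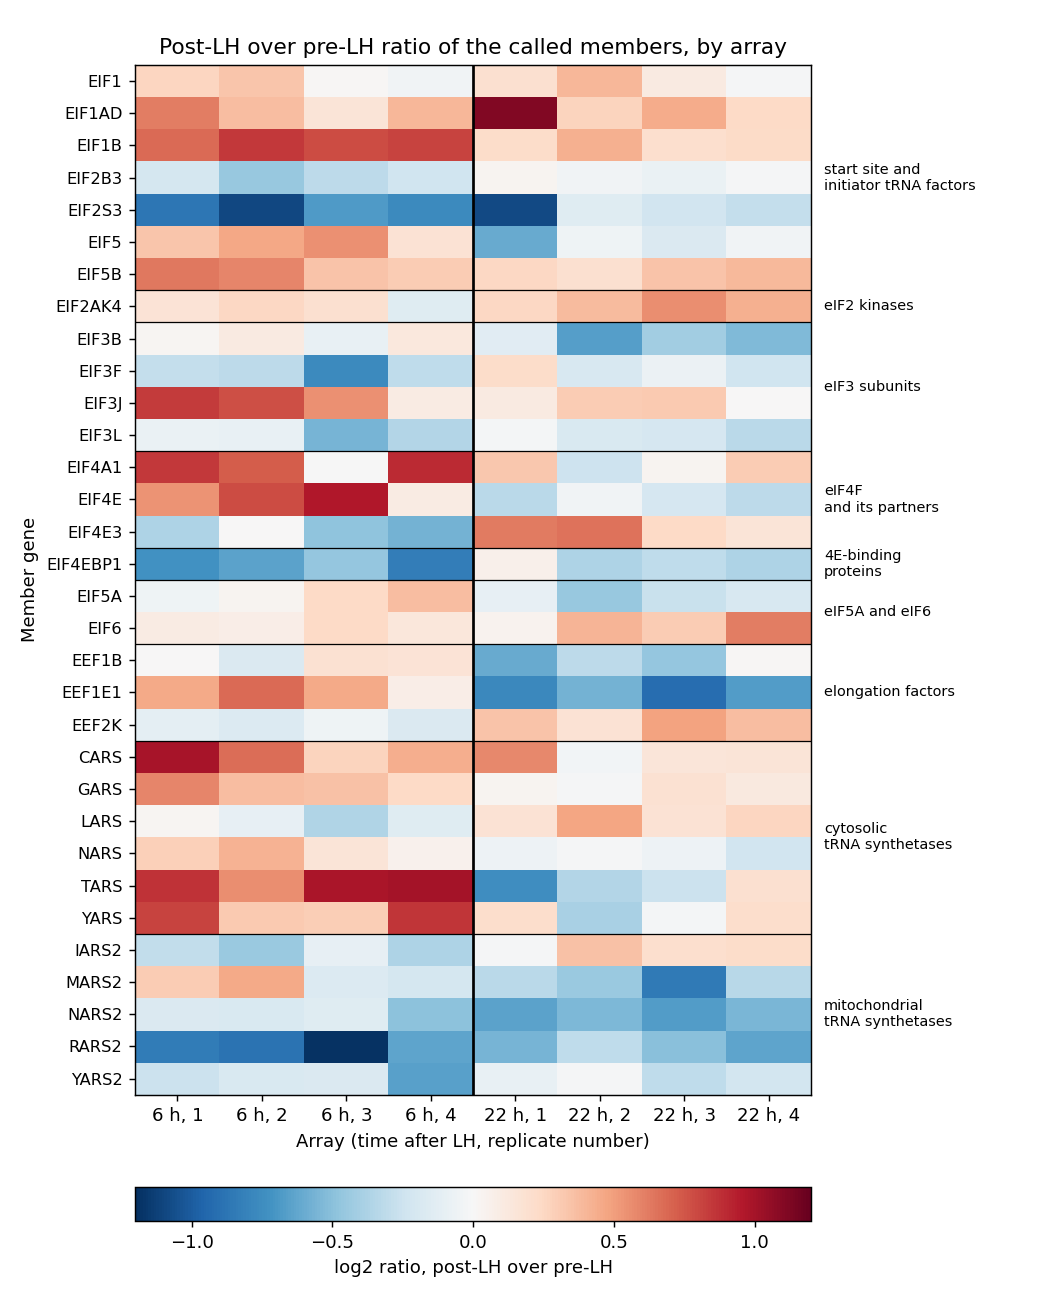
Log2 ratio of post-LH over pre-LH on each array (columns: the 4 arrays of 6 h, then the 4 of 22 h) for the 32 members called in at least 1 comparison (rows, grouped by role), with red above 0 and blue below 0. TARS and EIF1B are red on every 6 h array, RARS2 is blue on all 8 arrays, and EEF1E1 is red on the 4 arrays of 6 h and blue on the 4 of 22 h.

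The cytosolic synthetases leaned upwards at 6 h. Of 14 tested, 5 rose and 0 fell (35.7% called, against 24.5% of all genes), and their median change was 0.32 against -0.0039 for all genes. Downwards, limma gave 2 of the 14 an unadjusted p under 0.05. TARS, which charges threonine tRNA, had log2 ratios of 0.87, 0.55, 0.98 and 1.00 on the arrays of 6 h and of -0.75, -0.35, -0.25 and 0.19 on those of 22 h. All 4 arrays of 6 h lay above all 4 of 22 h, and the 22 h arrays straddled 0. TARS rose 1.80-fold at 6 h (0.85 ± 0.10, adjusted p = 0.00174), and its 22 h change of -0.29 ± 0.10 was not called (adjusted p = 0.110). The difference between the times was -1.14 ± 0.14 (adjusted p = 0.0038).

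CARS, the cysteine enzyme, had log2 ratios of 0.99, 0.67, 0.27 and 0.43 at 6 h and rose by 0.59 ± 0.11 (adjusted p = 0.0113). YARS, the tyrosine enzyme, had 0.81, 0.31, 0.29 and 0.85 at 6 h and rose by 0.57 ± 0.14 (adjusted p = 0.0294). GARS, the glycine enzyme, had 0.59, 0.37, 0.35 and 0.24 at 6 h and rose by 0.39 ± 0.06 (adjusted p = 0.00575). All 12 of these ratios lay above 0, and each of the 3 genes spread over a range of its own, widest in CARS. NARS, the asparagine enzyme, rose by 0.23 ± 0.05 (adjusted p = 0.0158) on its brightest probe, and its 2 dimmer probes gave larger changes of 0.66 and 0.55, both called. The calls of TARS and GARS held in every fit that left out 1 array. CARS was not called without 6 h replicate 1 (0.49, adjusted p = 0.0606), 2 (0.62, adjusted p = 0.0513) or 4 (0.60, adjusted p = 0.0501), and YARS was not called without 6 h replicate 1 (adjusted p = 0.140), 2 (0.0690) or 4 (0.124), or without 22 h replicate 3 (0.0535). NARS was not called without 6 h replicate 1 (adjusted p = 0.0612), 2 (0.0791) or 3 (0.0614), nor in the authors' deposited values (0.14, adjusted p = 0.423).

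The 9 cytosolic enzymes not called at 6 h had changes from -0.30 (KARS, lysine) to 0.40 (SARS, serine). SARS, AARS (alanine), MARS (methionine) and HARS (histidine) had high values but also a wide spread: the SARS ratios at 6 h ran from -0.034 to 0.80 and the HARS ratios from -0.14 to 0.70. The 95% interval of the SARS change was -0.02 to 0.82. At 22 h 1 of the 14 rose and 0 fell (7.14% called, against 20.5% of all genes), where limma gave 1 an unadjusted p under 0.05 downwards. The 1 that rose was LARS, the leucine enzyme. LARS had ratios of 0.023, -0.097, -0.36 and -0.15 at 6 h and of 0.18, 0.47, 0.18 and 0.26 at 22 h. All of its 22 h arrays lay above all of its 6 h arrays. It rose by 0.27 ± 0.06 at 22 h (adjusted p = 0.0266), with adjusted p of 0.0991, 0.108 and 0.0988 without 22 h replicate 2, 3 or 4, and of 0.0524 without 6 h replicate 2. GARS and KARS are each known to give both the cytosolic and the mitochondrial enzyme from 1 gene, and the array probes do not separate those forms here.

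The mitochondrial synthetases leaned the other way. Of 10 tested, 4 fell and 0 rose at 6 h, with a median of -0.16 and limma giving 0 an unadjusted p under 0.05 upwards, and 3 fell and 0 rose at 22 h, where limma gave 1 an unadjusted p under 0.05 upwards. These are 40% and 30% of the enzymes, against 24.5% and 20.5% of all genes called in either direction. RARS2, the mitochondrial arginine enzyme, had ratios of -0.84, -0.89, -1.18 and -0.64 at 6 h and of -0.56, -0.31, -0.50 and -0.63 at 22 h. Every array of both times lay below 0, and all arrays of 6 h lay below those of 22 h, the nearest at -0.64 and -0.63. RARS2 fell to 0.54 times the pre-LH level at 6 h (-0.89 ± 0.09, adjusted p = 0.000919) and to 0.71 times it at 22 h (-0.50 ± 0.09, adjusted p = 0.0106). The 6 h call held in every fit that left out 1 array, and the 22 h call was lost without 22 h replicate 3 (adjusted p = 0.0542).

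NARS2, the mitochondrial asparagine enzyme, had ratios of -0.17, -0.19, -0.14 and -0.50 at 6 h and of -0.64, -0.54, -0.67 and -0.55 at 22 h. The 22 h arrays lay together and all below the 6 h arrays, of which replicate 4 stood apart. NARS2 fell by 0.60 ± 0.06 on the log2 scale at 22 h (adjusted p = 0.00106), which held without any single array, and by 0.25 ± 0.06 at 6 h (adjusted p = 0.0306), which did not hold without 6 h replicate 1 (0.0978), 2 (0.108) or 4 (0.0538) or 22 h replicate 3 (0.0541). Both calls rested on 1 of its 2 tested probes, and the dimmer gave 0.016 at 6 h and 0.014 at 22 h. MARS2, for methionine, had ratios of 0.30, 0.46, -0.17 and -0.21 at 6 h and of -0.32, -0.45, -0.85 and -0.33 at 22 h. Its 6 h arrays were split in sign and all stood above its 22 h arrays. MARS2 fell at 22 h (-0.49 ± 0.09, adjusted p = 0.0149), with adjusted p of 0.0513, 0.0567 and 0.0875 without 22 h replicate 1, 2 or 3.

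IARS2 and YARS2, for isoleucine and tyrosine, completed the 6 h group. IARS2 had ratios of -0.30, -0.45, -0.10 and -0.37 at 6 h and of -0.013, 0.35, 0.20 and 0.22 at 22 h, with no overlap between the times. It fell at 6 h (-0.31 ± 0.07, adjusted p = 0.0257) but not without 6 h replicate 1 (0.0850), 2 (0.128) or 4 (0.107), nor in the authors' deposited values (-0.32, adjusted p = 0.137). YARS2 fell at 6 h by 0.32 ± 0.07 (adjusted p = 0.0233), with 3 arrays between -0.26 and -0.18 and replicate 4 at -0.65. Its call was lost without 6 h replicate 1 (0.108), 2 (0.0882) or 4 (0.0537), and its dimmer probe gave 0.013. The other 6 mitochondrial enzymes were not called at either time except MARS2 at 22 h, given above, and at 6 h they lay between -0.19 (LARS2, leucine) and 0.097 (MARS2).

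For 10 amino acids both the cytosolic and the mitochondrial enzyme were tested, so that the 2 compartments could be set side by side. At 6 h the cytosolic enzyme had the higher change in 10 of 10 pairs, by a median of 0.56 and by 0.037 (WARS over WARS2, tryptophan) to 0.89 (YARS over YARS2). Taken array by array, the median over the 10 pairs was 0.37 to 0.68, between 8 and 10 pairs had the cytosolic enzyme higher, and 5 pairs had it higher on all 4 arrays: IARS over IARS2, NARS over NARS2, RARS over RARS2, TARS over TARS2 and YARS over YARS2. At 22 h the cytosolic enzyme was higher in 8 of 10 pairs with a median of 0.25, and the exceptions were IARS against IARS2 and TARS against TARS2. These pairs share arrays and are given as a description, without a test. Over the alternative settings the 6 h count ran from 9 to 10 pairs with medians of 0.50 to 0.59, and the 22 h count from 6 to 8 pairs with medians of 0.18 to 0.29. The 6 h median of the cytosolic enzymes stayed above 0 in each of them (0.23 to 0.40) and that of the mitochondrial enzymes below 0 (-0.25 to -0.077), while at 22 h median centring took the cytosolic median to -0.018 and the choice of the dimmest probe took the mitochondrial one to 0.0033.

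**Figure D2:**
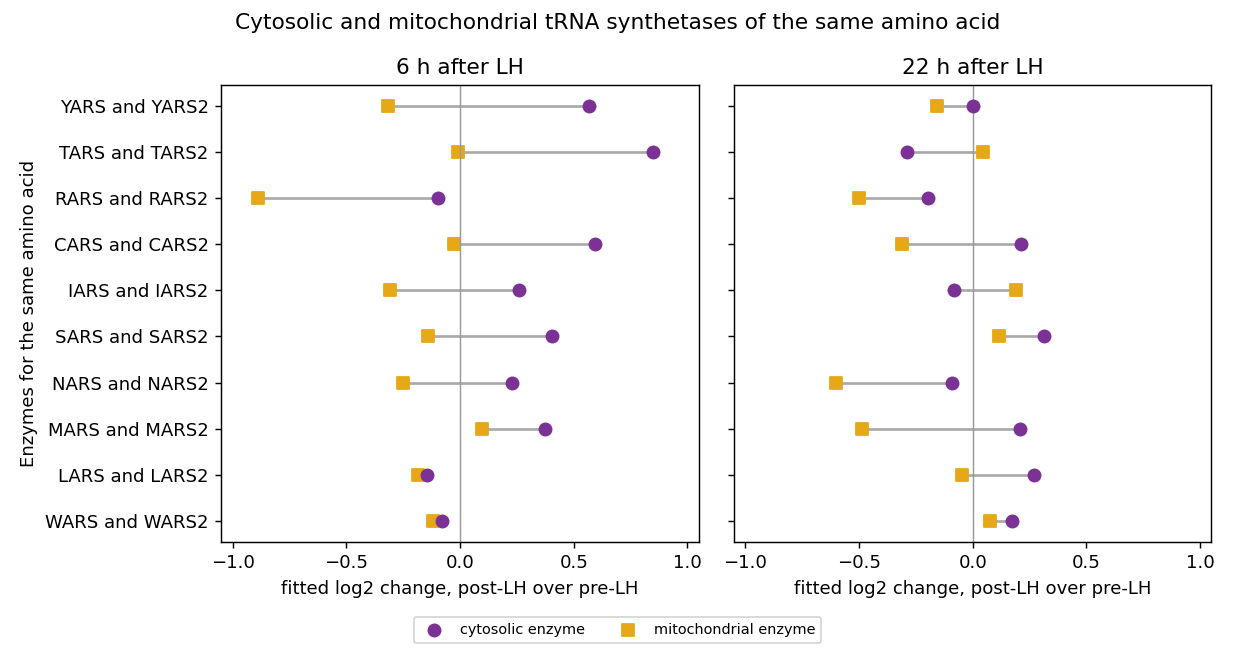
Fitted log2 change of post-LH over pre-LH (horizontal axis) at 6 h and at 22 h for the cytosolic enzyme (purple circle) and the mitochondrial enzyme (yellow square) of the same amino acid, joined by a line. At 6 h the circle lies to the right in 10 of 10 pairs, and at 22 h in 8 of 10.

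EEF1E1 carries an elongation factor's symbol but is also known as AIMP3, a scaffold protein of the cytosolic complex that holds several synthetases together. It had ratios of 0.45, 0.68, 0.45 and 0.084 at 6 h and of -0.77, -0.57, -0.91 and -0.67 at 22 h. Every array of 6 h was above 0 and every array of 22 h below it. EEF1E1 rose at 6 h (0.42 ± 0.08, adjusted p = 0.0125) and fell to 0.60 times the pre-LH level at 22 h (-0.73 ± 0.08, adjusted p = 0.00147). Its second probe did the same (0.50 at 6 h and -0.41 at 22 h, adjusted p = 0.0058 and 0.0149). The difference between the times, -1.15 ± 0.11 (adjusted p = 0.00162), and the 22 h fall held without any single array, while the 6 h rise was lost without 6 h replicate 1 (0.0504), 2 (0.0710) or 3 (0.0543). Of 7 further genes of charging that the rule does not reach, among them the scaffold genes AIMP1 and AIMP2 and the phenylalanine enzymes FARSA, FARSB and FARS2, 1 fell at 6 h and 0 were called at 22 h, where limma gave 1 of them an unadjusted p under 0.05 downwards and 0 upwards. The share called was 14.3% at 6 h and 0% at 22 h, against 24.5% and 20.5% of all genes. AIMP1 fell by 0.48 ± 0.10 at 6 h (adjusted p = 0.0179) and AIMP2 had a change of 0.27 that was not called.

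**Figure D3:**
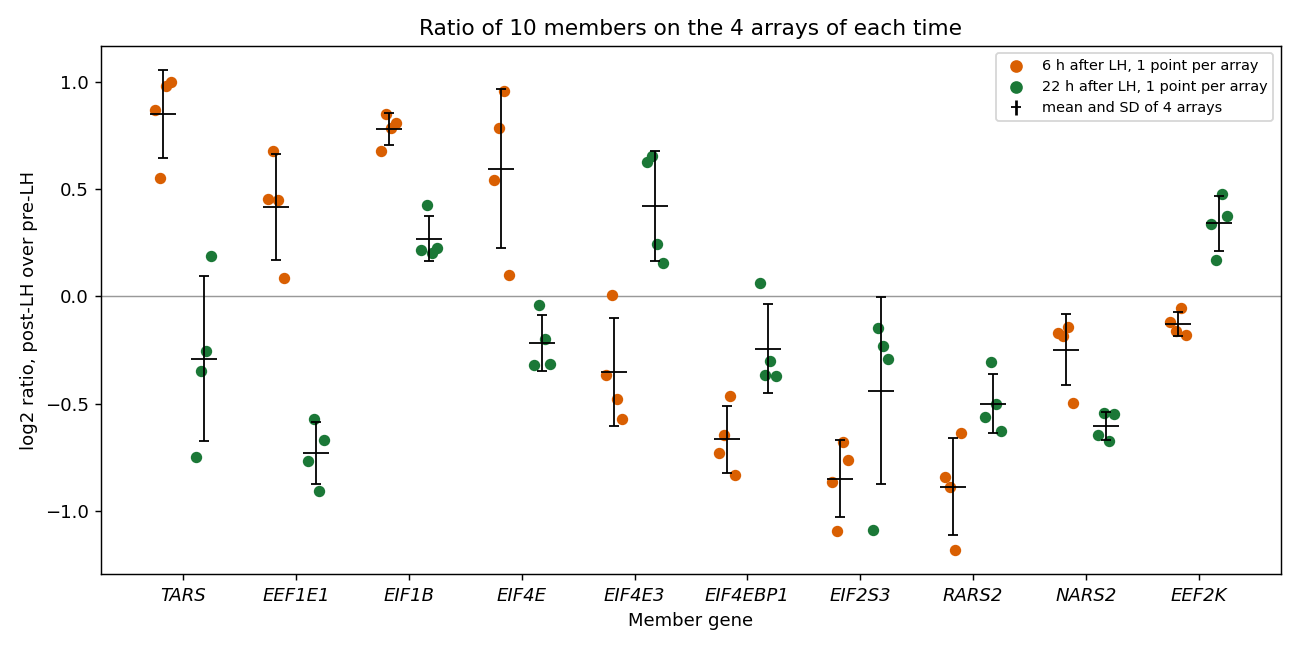
Log2 ratio of post-LH over pre-LH (vertical axis) on each array for 10 members, with the 4 arrays of 6 h in orange left of the 4 of 22 h in green and the mean and SD of each 4 in black. The 2 times do not overlap in TARS, EEF1E1, EIF1B, EIF4E, EIF4E3, NARS2, EEF2K, EIF4EBP1 and RARS2, the last by a narrow margin, and they overlap in EIF2S3. The 10 were picked from the 32 called members, so their lack of overlap is no result about the family. The share of all genes without overlap is not given here.

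Among the 15 factors of start codon choice and initiator tRNA, 3 rose and 2 fell at 6 h, and 4 rose and 0 fell at 22 h (limma gave 2 of them an unadjusted p under 0.05 downwards at 22 h). These calls make 33.3% at 6 h and 26.7% at 22 h, against 24.5% and 20.5% of all genes. EIF1B, a close relative of the start codon selection factor EIF1, had ratios of 0.68, 0.85, 0.79 and 0.81 at 6 h and of 0.22, 0.43, 0.20 and 0.23 at 22 h. The arrays of 6 h lay close together, and all of them above those of 22 h, which were above 0 in turn. EIF1B rose 1.72-fold at 6 h (0.78 ± 0.05, adjusted p = 0.000146), the smallest adjusted p of any member at that time, and rose 1.21-fold at 22 h (0.27 ± 0.05, adjusted p = 0.0119). EIF5B, the GTPase that joins the ribosomal subunits, rose at both times, by 0.47 ± 0.06 at 6 h (ratios of 0.63, 0.58, 0.34 and 0.30, adjusted p = 0.00337) and by 0.29 ± 0.06 at 22 h (0.25, 0.19, 0.34 and 0.38, adjusted p = 0.0257). All 8 of its arrays were above 0, and its 22 h call was lost without 22 h replicate 1 (0.0519), 3 (0.133) or 4 (0.0947).

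EIF2S3, the subunit of eIF2 that binds GTP and the initiator tRNA, had ratios of -0.87, -1.09, -0.68 and -0.76 at 6 h and of -1.09, -0.15, -0.23 and -0.29 at 22 h. Every array lay below 0, and at 22 h replicate 1 stood far below the other 3. EIF2S3 fell to 0.55 times the pre-LH level at 6 h (-0.85 ± 0.13, adjusted p = 0.00581), which held without any single array, and its 22 h change of -0.44 ± 0.13 was not called (adjusted p = 0.0781). The other 2 subunits, EIF2S1 and EIF2S2, were not called at either time, with 6 h changes of -0.06 and 0.24. EIF2B3, a subunit of the exchange factor that reloads eIF2 with GTP, had ratios of -0.21, -0.46, -0.32 and -0.24 at 6 h and of 0.031, -0.045, -0.083 and -0.019 at 22 h. It fell at 6 h (-0.31 ± 0.05, adjusted p = 0.00514) with or without any single array, its 22 h arrays lay around 0, and EIF2B1, EIF2B2, EIF2B4 and EIF2B5 were not called at either time.

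EIF5, which triggers GTP hydrolysis by eIF2, rose at 6 h by 0.38 ± 0.10 (ratios of 0.34, 0.46, 0.55 and 0.18, adjusted p = 0.0444). Its call was lost without 6 h replicate 1 (0.154), 2 (0.191) or 3 (0.155) or 22 h replicate 3 (0.0769) or 4 (0.0570), and its second probe gave 0.04 at 6 h but -0.79 at 22 h (adjusted p = 0.0010). EIF1AD, named for an eIF1A-like domain, rose at 22 h by 0.52 ± 0.13 (1.11, 0.27, 0.45 and 0.24, adjusted p = 0.0405), and no fit without a single array of 6 h, nor those without 22 h replicate 1 (0.34, adjusted p = 0.0638), 3 (0.171) or 4 (0.0788), called it. The dimmer EIF1AD probe gave 0.092 at 22 h, with arrays of -0.026, -0.027, 0.23 and 0.19. EIF1 rose at 22 h by 0.17 ± 0.04 on a probe near saturation (adjusted p = 0.0419). Only the fit without 22 h replicate 1 kept that call among the 8 that left out 1 array, with adjusted p of 0.0561 to 0.185 in the other 7, and median centring turned its sign (-0.13). The dimmer EIF1 probe lay above 0 on all 8 arrays, from 0.38 to 0.88, and was called at 6 h and at 22 h, as given below.

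Of the 4 eIF2 kinases, which halt initiation by phosphorylating eIF2, 0 were called at 6 h, where limma also gave 0 of them an unadjusted p under 0.05, and 1 rose at 22 h. Of all genes 24.5% were called at 6 h and 20.5% at 22 h. EIF2AK4, known as GCN2 and activated by uncharged tRNA, had ratios of 0.16, 0.25, 0.19 and -0.14 at 6 h and of 0.25, 0.38, 0.56 and 0.43 at 22 h. All arrays of 22 h were above those of 6 h, by a narrow margin at the nearest. It rose at 22 h (0.41 ± 0.08, adjusted p = 0.0137), not so without 22 h replicate 3 (0.0782) or 4 (0.0519), and the difference between the times was not called (0.29 ± 0.11, adjusted p = 0.151). The kinases signal through the integrated stress response, in which ATF4 turns on amino acid and synthetase genes. Of 15 tested genes of that response 5 rose and 2 fell at 6 h, and 3 rose and 3 fell at 22 h (46.7% and 40% called). ATF3, a stress-induced transcription factor, rose by 2.47 ± 0.13 at 6 h and 2.10 ± 0.13 at 22 h, DDIT4, an inhibitor of mTORC1, rose by 1.56 ± 0.10 and 0.65 ± 0.10, and PPP1R15B, which directs a phosphatase to eIF2, rose by 1.13 ± 0.09 and 0.43 ± 0.09. PSAT1 and PHGDH, enzymes of serine synthesis, fell by 1.48 ± 0.17 and 1.10 ± 0.12 at 6 h, and by 2.34 ± 0.17 and 1.15 ± 0.12 at 22 h. ATF4 and TRIB3, named after their values were seen, were the other 2 that rose at 6 h, by 0.85 ± 0.13 and 0.52 ± 0.09. ASNS, a textbook ATF4 target also named after its values were seen, was not called at either time (0.30 and -0.13). Whether ATF4 had a part in the changes of the synthetases was not tested.

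Of 12 subunits of eIF3, the scaffold that binds the small ribosomal subunit, 1 rose and 2 fell at 6 h, and 0 rose and 1 fell at 22 h, where limma gave 1 an unadjusted p under 0.05 upwards. The share called was 25% at 6 h and 8.33% at 22 h, against 24.5% and 20.5% of all genes. EIF3J, a loosely bound subunit, had ratios of 0.84, 0.77, 0.55 and 0.098 at 6 h and rose by 0.56 ± 0.10 (adjusted p = 0.00991), but not without 6 h replicate 1 (0.0616) or 2 (0.0616). EIF3F had ratios of -0.28, -0.31, -0.76 and -0.31 at 6 h, where replicate 3 stood apart, and fell by 0.42 ± 0.09 (adjusted p = 0.0199), a call lost without 6 h replicate 1 (0.0806), 2 (0.0883) or 3 (0.0650). Its 4 probes gave 6 h changes from -0.42 to -0.11. EIF3L had ratios of -0.079, -0.087, -0.56 and -0.35 and fell at 6 h by 0.27 ± 0.05 (adjusted p = 0.0153), lost without 6 h replicate 1 (0.0525) or 2 (0.0565).

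EIF3B, a core subunit that organises the complex, had ratios of 0.024, 0.11, -0.093 and 0.13 at 6 h and of -0.13, -0.66, -0.42 and -0.53 at 22 h. The arrays of 6 h lay around 0 and those of 22 h all below them. It fell at 22 h to 0.74 times the pre-LH level (-0.44 ± 0.08, adjusted p = 0.0146), a call lost without 22 h replicate 3 (0.0642) or 4 (0.0587). EIF3E and EIF3M had 6 h changes of -0.52 and -0.38 with all 4 arrays below 0, and neither passed (adjusted p = 0.102 and 0.0977).

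Of the 12 genes of eIF4F and its partners, 2 rose and 1 fell at 6 h, and 1 rose and 0 fell at 22 h, where limma gave 2 an unadjusted p under 0.05 downwards. Called were 25% at 6 h and 8.33% at 22 h, against 24.5% and 20.5% of all genes. EIF4E, the cap-binding protein, had ratios of 0.54, 0.78, 0.96 and 0.10 at 6 h and of -0.32, -0.040, -0.20 and -0.31 at 22 h. Its arrays were all above 0 at 6 h and all below 0 at 22 h. EIF4E rose 1.51-fold at 6 h (0.60 ± 0.13, adjusted p = 0.0200), and each of its 3 probes was called, with 0.57 and 0.24 on the other 2. The call was lost without 6 h replicate 1 (0.0706) or 2 (0.106). EIF4A1, the helicase of eIF4F, rose at 6 h (0.62 ± 0.16, adjusted p = 0.0430) with ratios of 0.85, 0.73, -0.0068 and 0.90, and replicate 3 lay near 0. That call was lost without 6 h replicate 1 (0.184), 2 (0.164) or 4 (0.167) or 22 h replicate 3 (0.0751) or 4 (0.0517), and in the authors' deposited values (0.43, adjusted p = 0.0667). Its relative EIF4A2 had ratios of -0.99, -1.23, -0.16 and -0.35 at 6 h, and the change of -0.68 ± 0.21 was not called (adjusted p = 0.0710).

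EIF4E3, a cap-binding relative of EIF4E, fell at 6 h and rose at 22 h. Its ratios were -0.37, 0.0054, -0.48 and -0.57 at 6 h and 0.63, 0.65, 0.24 and 0.16 at 22 h. The 22 h arrays were all above 0, and 3 of the 4 arrays of 6 h were below it. The change was -0.35 ± 0.06 at 6 h (adjusted p = 0.00795) and 0.42 ± 0.06 at 22 h (adjusted p = 0.0046), and the difference between the times was 0.77 ± 0.08 (adjusted p = 0.00252). All 3 calls held without any single array. The 6 h and 22 h calls rested on the dye term, since this gene had a called dye effect, and without that term the adjusted p were 0.0851 and 0.0521.

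EIF4EBP1, which binds EIF4E and blocks the assembly of eIF4F until mTORC1 phosphorylates it, fell at 6 h. Its ratios were -0.73, -0.64, -0.46 and -0.83 at 6 h and 0.063, -0.37, -0.30 and -0.37 at 22 h. The 2 times did not overlap, and 22 h replicate 1 stood above the others. EIF4EBP1 fell to 0.63 times the pre-LH level at 6 h (-0.67 ± 0.09, adjusted p = 0.0027), with or without any single array. The 22 h change of -0.24 ± 0.09 (adjusted p = 0.124) and the difference of 0.42 ± 0.12 (adjusted p = 0.0789) were not called. Its dimmer probe gave -0.16 at 6 h (adjusted p = 0.160). Of 13 tested genes of mTORC1 and the kinases of translation, 2 rose and 2 fell at 6 h, and 0 rose and 1 fell at 22 h, where limma gave 4 an unadjusted p under 0.05 upwards. Their called share was 30.8% at 6 h and 7.69% at 22 h, against 24.5% and 20.5% of all genes. PDCD4, an inhibitor of EIF4A, fell by 0.42 ± 0.11 at 6 h and LARP1, which binds TOP messages, fell by 0.42 ± 0.10 at 6 h and 0.41 ± 0.10 at 22 h. RPS6KB1, the S6 kinase, rose by 0.35 ± 0.09 at 6 h and RHEB, the activator of mTORC1, by 0.28 ± 0.06.

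EIF6, which keeps the large ribosomal subunit from joining too early, had ratios of 0.099, 0.080, 0.24 and 0.13 at 6 h and of 0.046, 0.41, 0.30 and 0.62 at 22 h. The times overlapped. It rose at 22 h by 0.34 ± 0.07 (adjusted p = 0.0230), not so without 22 h replicate 2 (0.0833), 3 (0.0553) or 4 (0.0734), and its dimmer probe gave -0.028. EIF5A, which carries the hypusine residue and helps ribosomes over difficult stretches, was not called at 6 h or 22 h (0.15 and -0.25). Of the 2 enzymes that make hypusine, DOHH rose at 6 h by 0.29 ± 0.07 (adjusted p = 0.0344) and was not called at 22 h (0.033). DHPS was not called at either time, with -0.20 ± 0.15 at 6 h and 0.54 ± 0.15 at 22 h (adjusted p = 0.468 and 0.0587).

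Of the 8 genes with an elongation symbol 1 rose and 0 fell at 6 h, where limma gave 1 an unadjusted p under 0.05 downwards, and 1 rose and 2 fell at 22 h. The called share was 12.5% at 6 h and 37.5% at 22 h, against 24.5% and 20.5% of all genes. EEF1E1, described above, was the 1 that rose at 6 h. EEF1A1, which delivers charged tRNA, and EEF2, which moves the ribosome, were not called at either time, with changes of -0.02 and -0.02 at 6 h and -0.07 and -0.45 at 22 h. The dimmer probe of EEF1A1 fell at both times (-0.37 and -0.50, adjusted p = 0.0370 and 0.0141), while the brightest lies over 15 in log2 intensity. The EEF2 arrays of 22 h ran from -1.10 to 0.29, and its 95% interval there was -0.89 to -0.01. EEF1B, listed now as EEF1B2 and the exchange factor of EEF1A1, had ratios of 0.0087, -0.17, 0.18 and 0.16 at 6 h and of -0.60, -0.31, -0.46 and 0.018 at 22 h. The times overlapped, and 3 of the 4 arrays of 22 h lay below 0. EEF1B fell at 22 h (-0.34 ± 0.08, adjusted p = 0.0374), and the call was lost without any 1 of the 4 arrays of 6 h (adjusted p = 0.0618 to 0.0642) and without 22 h replicate 1 (0.136) or 3 (0.142). A fixed list of messages with a terminal oligopyrimidine tract (TOP), whose translation follows mTORC1, held 9 of the members. Of these 0 rose and 1 fell at each time (11.1% called), where limma gave 0 an unadjusted p under 0.05 upwards. Members outside the list were not sorted by such a tract.

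EEF2K, the kinase that switches EEF2 off, had ratios of -0.12, -0.16, -0.052 and -0.18 at 6 h and of 0.34, 0.17, 0.48 and 0.37 at 22 h. All arrays of 6 h were below 0 and all of 22 h above it. EEF2K rose 1.27-fold at 22 h (0.34 ± 0.05, adjusted p = 0.00349), was not called at 6 h (-0.13 ± 0.05, adjusted p = 0.110), and differed between the times by 0.47 ± 0.06 (adjusted p = 0.0058). Both calls held without any single array.

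Of 8 termination and recycling genes outside the family, 1 rose and 2 fell at 6 h, and 1 rose and 1 fell at 22 h. These make 37.5% and 25%, against 24.5% and 20.5% of all genes. ETF1, the release factor that reads stop codons, had ratios of 0.99, 1.34, 0.86 and 0.46 at 6 h and of 0.16, 0.29, -0.11 and 0.10 at 22 h, and rose at 6 h by 0.91 ± 0.09 (adjusted p = 0.000933). GSPT2 and MCTS1 fell at 6 h, by 0.40 ± 0.08 and 0.43 ± 0.06, and PAIP2, which binds and restrains the poly(A)-binding protein, rose at 22 h by 0.80 ± 0.18. Of 8 mitochondrial translation factors 0 rose and 3 fell at 6 h, where limma gave 0 an unadjusted p under 0.05 upwards, and 2 rose and 1 fell at 22 h (37.5% called at each time). The initiation factors MTIF2 and MTIF3 and the elongation factor GFM1 fell at 6 h, by 0.41 ± 0.08, 0.31 ± 0.06 and 0.39 ± 0.10, and the release factors MTRF1 and MTRF1L rose at 22 h, each by 0.38 with SE of 0.05 and 0.06.

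**Figure D4:**
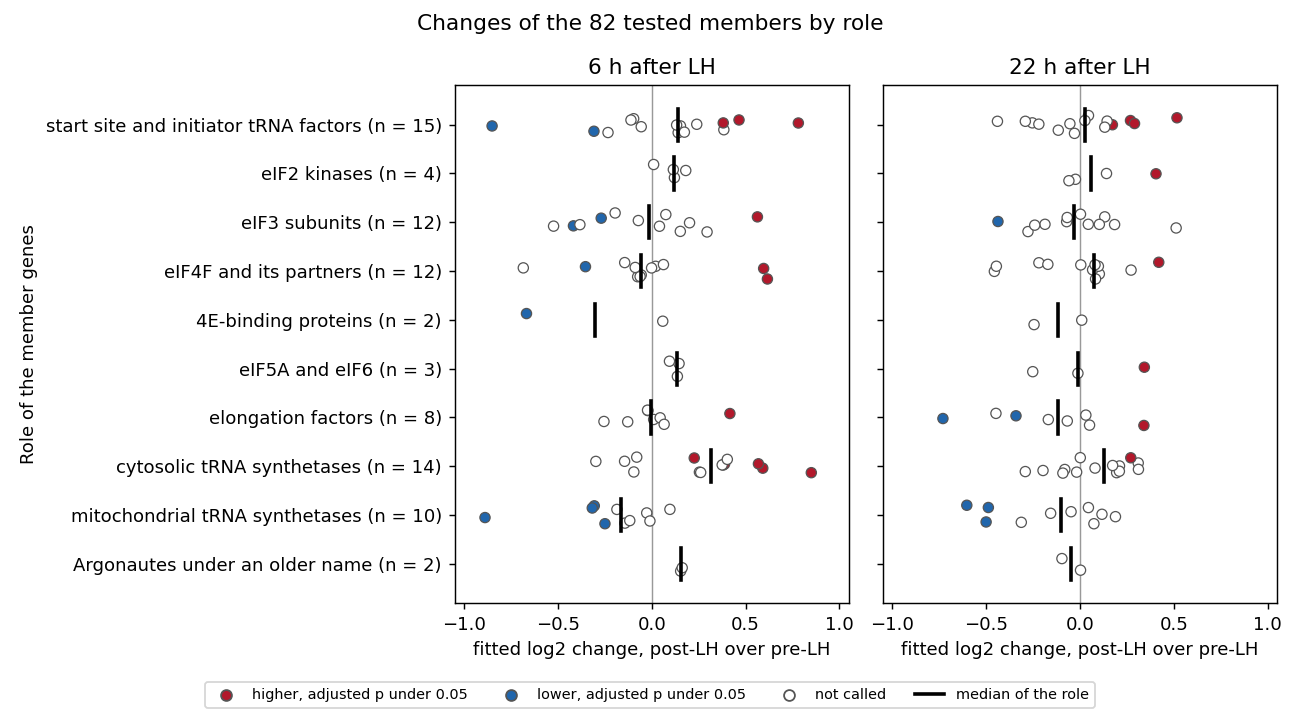
Fitted log2 change of post-LH over pre-LH (horizontal axis) of the 82 tested members by role (vertical axis), at 6 h and at 22 h; filled points passed an adjusted p under 0.05 (red higher, blue lower), open points did not, and black bars are medians. At 6 h the cytosolic synthetases hold 5 red points and 0 blue ones, and the mitochondrial synthetases 0 red and 4 blue.

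The 22 h and 6 h changes of 15 members differed in the direct contrast. The 10 that were lower at 22 h than at 6 h were EEF1E1, TARS, EIF4E (-0.82 ± 0.18, adjusted p = 0.0338), EIF5 (-0.60 ± 0.15, 0.0444), MARS2 (-0.58 ± 0.13, 0.0346), EIF1B (-0.51 ± 0.07, 0.00532), EIF3B (-0.48 ± 0.12, 0.0463), EIF5A (-0.40 ± 0.10, 0.0451), NARS2 (-0.35 ± 0.09, 0.0439) and NARS (-0.32 ± 0.07, 0.0254). The 5 that were higher at 22 h were EIF4E3, IARS2 (0.50 ± 0.10, 0.0238), EEF2K, LARS (0.42 ± 0.09, 0.0254) and EIF2B3 (0.28 ± 0.07, 0.0420). The 2 sets of arrays may share pre-LH samples, which the labels do not state, and lie on a slide each, so time and slide cannot be told apart in this contrast. The counts were small without single arrays: without 6 h replicates 1, 2 and 3 in turn 3, 3 and 5 members were lower, and without 22 h replicates 1 to 4 in turn 6, 4, 4 and 6 were. Over all genes the share lower at 22 h was 4.66%, 4.27% and 5.94% in the first 3 fits. In the other 4 it was 6.93%, 5.48%, 4.52% and 7.7%. The count of higher members was 2 without 6 h replicate 1 or 2, 3 without 22 h replicate 2, and 2 without 22 h replicate 3 or 4. For all genes the higher shares in those fits were, in the same order, 4.88%, 4.31%, 7.4%, 4.75% and 6.3%. The contrasts of EEF1E1, TARS, EIF1B, EIF4E3 and EEF2K held in every fit that left out 1 array, and the other 10 were each lost in at least 1. That of EIF5A held in 1 of the 8 such fits, and its dimmer probe gave a difference of -0.11. For NARS2 the dimmer probe gave -0.0015.

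For 51 of the members the array had 1 probe, and 29 had several that could be tested. Among those 29, at 6 h all probes were called alike in 3 genes, some were called in 7 and 19 had none called, and no gene had probes called in opposite directions at either time. EIF4E, NARS and EEF1E1 were the 3. Probes of a gene also differed in size. The brightest probe of EIF1, saturated on some arrays, gave 0.14 ± 0.04 and 0.17 ± 0.04 at 6 h and 22 h, while its dimmer probe gave 0.60 ± 0.10 and 0.69 ± 0.10, both called (adjusted p = 0.0080 and 0.0054). The 4 members with a mean log2 intensity over 15 (EEF1A1, EEF1D, EIF1 and EIF4G2) had changes within -0.067 and 0.17 at both times, and the 8 under 7.5 had changes between -0.096 and 0.15, with 0 called. The part of probe intensity in these values was not tested.

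**Figure D5:**
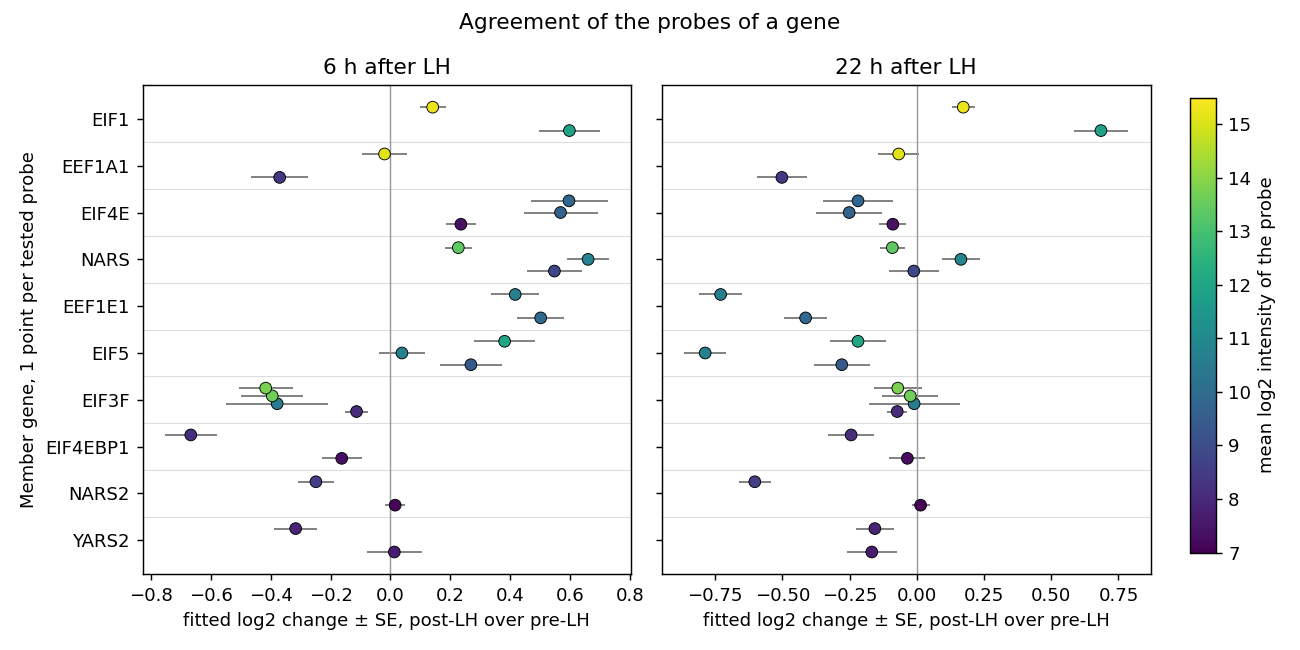
Fitted log2 change of post-LH over pre-LH with its SE (horizontal axis) for each tested probe of 10 members (rows), coloured by the mean log2 intensity of the probe, at 6 h and at 22 h. The 3 probes of EIF4E and of NARS lie above 0 at 6 h, while the probes of EIF1 and of EEF1A1 stand apart from each other by 0.3 or more.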

How the data were processed

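Spot intensity values (mean foreground, median background, both dyes) were deposited as raw scanner output of the 8 arrays, per the file headers. The authors also deposited normalised log2 ratios of the same arrays by a method not stated in the labels; they correlated with the ratios computed here at r = 0.874 to 0.932 (slopes 1.08 to 1.30, medians -0.0160 to 0.00502) and served as an alternative.

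In limma 3.58.1 (R 4.3.3) background was corrected by normexp (offset 50) and each array normalised by loess, with 1426 control and empty spots at weight 0 and ignored spots left out. A probe was tested if it exceeded the 95th percentile of the 153 negative controls in at least 0.5 of the channels of at least 1 group (38453 of 43794). Dye-swapped ratios were turned, and 1 model with terms for 6 h, 22 h and dye was fitted, followed by eBayes. The brightest tested probe stood for a gene, and symbols came from GEO's platform annotation. The fit was tested on simulated data. Replicate numbers did not pair the arrays (residual correlations of -0.069, 0.19, 0.15 and -0.30). Alternatives were no background correction, median centring, 2 other filters on dim probes, no dye term, the replicate block, the dimmest probe and leaving out each array.

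The members, gene lists and markers were chosen with earlier results of these data known. Up to 8 called members per comparison and direction, by size of change, are given array by array. Of each further list up to 4 called genes at each time are named by size. Some others, among them AIMP2, DHPS, ATF4, TRIB3 and ASNS, are named beside them.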

Additional observations from a re-analysis of the deposited data

Results flagged for a closer look

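In 6 of the 64 groups of 4 arrays that were checked for the 32 called members, 1 array stood apart from the other 3 by Dixon's criterion, and chance marks about 1 group in 20. EIF1B had 0.428 on 22 h replicate 2 against 0.203 to 0.228 on the others, EIF2S3 had -1.09 on 22 h replicate 1 against -0.290 to -0.148, and EIF4EBP1 had 0.0631 on 22 h replicate 1 against -0.371 to -0.302. EIF3F had -0.763 on 6 h replicate 3 against -0.313 to -0.283, NARS2 had -0.495 on 6 h replicate 4 against -0.186 to -0.143, and YARS2 had -0.650 on 6 h replicate 4 against -0.255 to -0.176. What sets these arrays apart was not tested.

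The difference of the 22 h change minus the 6 h change was called by limma for 15 members. It was -1.15 in EEF1E1, -1.14 in TARS, -0.82 in EIF4E, -0.60 in EIF5, -0.58 in MARS2, -0.51 in EIF1B, -0.48 in EIF3B, -0.40 in EIF5A, -0.35 in NARS2 and -0.32 in NARS. It was 0.77 in EIF4E3, 0.50 in IARS2, 0.47 in EEF2K, 0.42 in LARS and 0.28 in EIF2B3. Slide and time cannot be told apart in these values. EEF1E1 and EIF4E3 were also called in opposite directions at the 2 times.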

How the results depend on the processing

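The calls depended on the normalisation and on single arrays. Median centring in place of loess gave 0 members in each of the 6 counts, where limma gave 2 higher and 6 lower at 6 h, 0 and 5 at 22 h, and 1 and 3 between the times at an unadjusted p under 0.05; it kept the sign of 51 of the 52 called changes and turned EIF1 at 22 h to -0.13. Over all genes median centring called 0.0637% to 0.714% in the 6 counts. The cause was not tested. Without background correction 2 members were higher at 22 h than at 6 h (9.39% of all genes), and in the authors' deposited values 3 were (9% of all genes). With the replicate block 6 members were lower at 22 h than at 6 h (7.08% of all genes), against 10 without it, and the replicate numbers are only names here. Reading genes from the dimmest tested probe turned NARS2 at 6 h to 0.016 and at 22 h to 0.014, YARS2 at 6 h to 0.013 and EIF6 at 22 h to -0.028. Leaving out 1 array at a time gave 4 to 14 members higher and 5 to 14 lower at 6 h, 3 to 8 higher and 2 to 8 lower at 22 h, and 2 to 5 higher and 3 to 8 lower at 22 h than at 6 h. Over all genes the same fits called 6.56% to 12.5% up and 7.36% to 14.3% down at 6 h. They called 4.97% to 9.81% and 5.59% to 10.7% at 22 h, and 4.31% to 7.66% and 4.27% to 7.7% between the times. Of the 52 called changes, 19 held in every fit that left out 1 array and 14 in every alternative but median centring. Counts under the other alternatives stayed within 1.5 times those given. The genes outside the family were tested under the main setting alone. The 8 members under a mean log2 intensity of 7.5 were read from dim probes, and those over 15 from bright ones that may saturate. What this does to their changes was not tested.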

Other observations

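The members below were picked after their values were seen. Several had the 4 arrays of a time on 1 side of 0 without passing the test. The Argonautes EIF2C2 and EIF2C3, which carry small RNAs to their target messages, had 6 h changes of 0.15 and 0.16 (limma's adjusted p = 0.0633 and 0.0707). EIF2S1, the subunit of eIF2 that the stress kinases phosphorylate, had -0.25 at 22 h (adjusted p = 0.0531), with arrays from -0.42 to -0.12. EIF4E2, a cap-binding relative of EIF4E known as a repressor of translation, had -0.44 at 22 h (adjusted p = 0.169), with arrays from -0.66 to -0.26, and its arrays of 6 h ran from -0.44 to 0.80.

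In others the arrays of 22 h disagreed in size or sign. EIF3G had 1.00, -0.25, 0.71 and 0.59, EIF4A2 had -1.49, -0.0064, -0.30 and -0.025, and EEF2 had -0.89, -1.10, -0.087 and 0.29, and none of these 3 was called at 22 h by limma (adjusted p = 0.160, 0.234 and 0.183).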
